A study of Mus musculus with 53 samples.

Results

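The genes described here belong to the routes that dispose of excess glucose and that are named in diabetic neuropathy. They are Akr1b3, Akr1b8 and Sord of the polyol route, Glo1, Hagh and Ager of glycation, Gfpt1 and Gfpt2 of the hexosamine route, Tkt of the pentose phosphate route, and Txnip, a glucose-responsive regulator of redox state and glucose uptake. They were selected by symbol for their pathway, with earlier results of these data known, and all 10 were found among the 49568 genes listed for each sample. RNA was sequenced from 53 sciatic nerve samples of male C57BL/6J mice in 8 groups. Standard diet (SD) mice gave 5 samples at 16 weeks of age and 8 at 24 weeks. High-fat diet (HFD) mice, the prediabetic model, received 60% of kcal as fat from 5 weeks of age and gave 7 samples at each age. HFD-STZ mice, the T2D model, had the same diet and streptozotocin at 12 weeks of age, with 75 mg/kg followed by 50 mg/kg after 3 days, and gave 5 samples at 16 weeks and 8 at 24 weeks. HFD-DR mice (7 samples) and HFD-STZ-DR mice (6 samples) were moved from HFD to the control diet, with 13% of kcal as fat per the series description and a lower share per the study's methods, at 16 weeks of age for 8 weeks of dietary reversal and were sampled at 24 weeks. Both DR groups share the earlier HFD, and HFD-STZ and HFD mice differ by streptozotocin, a toxin of pancreatic beta cells, on the same diet. The labels do not name single mice, so p-values measure the spread between samples of a group.

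Glucose that is not used in glycolysis can be reduced to sorbitol by aldose reductase and oxidised to fructose by sorbitol dehydrogenase, which together form the polyol pathway. Fructose 6-phosphate feeds the hexosamine pathway, whose end product is the donor for O-GlcNAc on proteins. Triose phosphates give rise to methylglyoxal, which forms advanced glycation end products unless the glyoxalase enzymes remove it, and the pentose phosphate pathway draws off the same glycolytic intermediates. Schwann cells of peripheral nerve are known to hold abundant aldose reductase.

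Txnip is known as one of the genes most responsive to glucose, through the factors MondoA and ChREBP acting at carbohydrate response elements, so the sequence before its start is shown here. The 250 bases directly before the annotated start on the plus strand, at chr3:96557707-96557956 in the RefSeq window of GRCm38.p6, are printed 5′ to 3′ with 2 copies of CACGAG in capitals.
Txnip upstream sequence: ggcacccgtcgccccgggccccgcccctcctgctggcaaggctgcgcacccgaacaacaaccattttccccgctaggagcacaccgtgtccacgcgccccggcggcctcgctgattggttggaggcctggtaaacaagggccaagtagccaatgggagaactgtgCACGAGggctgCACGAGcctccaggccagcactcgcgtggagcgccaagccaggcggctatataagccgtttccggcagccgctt
Both copies lie on the same strand with 5 bases between them, from position 96557872 to 96557888, and the first begins 85 bases before the start of the gene. This paired arrangement was looked for after the sequence had been seen, so its match in Txnip was fixed in advance. It was present in 1 of 32851 RefSeq promoter windows, 0.003%, which is that of Txnip. How many of them would hold such a pair by chance was not computed, so this share does not measure how particular it is. These windows also hold bases after the start, which are not printed here. The palindromic E-box CACGTG was found in 0 of the 9 members with a window against 7.2% of all windows. Akr1b3 had no window in this set and was not searched for any motif. The antioxidant core TGACNNNGC was found in 1 member, Hagh, against 12.4% of windows. The osmotic core TGGAAA was found in 2 members, Glo1 and Txnip, against 21.4%. The TGGAAA match of Txnip lies after the start of the gene, outside the printed sequence. The motifs were searched on both strands, and matches and their absence describe the letters of these windows only.

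The genes lie on 6 chromosomes (GRCm38, GENCODE M21), with Akr1b3 at chr6:34302434-34317478 and its neighbour Akr1b8 at chr6:34354119-34368463. Sord is at chr2:122234749-122265340, Glo1 at chr17:30584936-30626871, Hagh at chr17:24840143-24864450 and Ager at chr17:34597862-34600936. Gfpt1 is at chr6:87042846-87092197, Gfpt2 at chr11:49794178-49838613, Tkt at chr14:30548359-30574720 and Txnip at chr3:96557957-96561883. Of the 100-base stretches in the longest transcript of Sord, 21.22% also occur in Gm6652, and for Txnip 15.07% also occur in Gm15441, a gene on the opposite strand that overlaps its exons by 606 bases. The libraries were non-stranded per the study's methods, so reads of Txnip and Gm15441 cannot be told apart there. The Gm15441 values averaged 4.82 on the log2 scale and their Pearson correlation with Txnip over 53 samples was -0.05. The paralog pairs Akr1b3 and Akr1b8, and Gfpt1 and Gfpt2, shared none of these stretches with each other.

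All 10 genes were detected in nerve, at very different levels. Values were divided by the merged length of all annotated exons to compare genes, which gives a log2 level per kb. This holds only if the deposited values are not yet per length, which the sources used here do not say. Merged exons can exceed the longest transcript, with 7355 against 3223 bases for Tkt and 8384 against 5024 for Akr1b3. Sord has 2352 bases for both. The order per kb thus depends on the length used, and it was not computed with transcript lengths. Undivided, the order of the mean log2 values was Txnip (14.23), Tkt (13.70), Akr1b3 (12.90), Glo1 (12.78), Sord (12.18), Hagh (11.23), Gfpt1 (11.16), Gfpt2 (10.87), Akr1b8 (8.99) and Ager (5.41). Per kb, Txnip was the highest at 12.59, followed by the polyol and pentose phosphate enzymes Sord (10.95) and Tkt (10.82). Hagh, which completes methylglyoxal removal, was at 10.30, aldose reductase Akr1b3 at 9.84 and Glo1, the first glyoxalase, at 9.18. The aldo-keto reductase Akr1b8 (8.41) and the rate-limiting hexosamine enzymes Gfpt2 (8.39) and Gfpt1 (7.83) were lower. Ager, the receptor for advanced glycation end products, was the lowest at 4.32, and its mean log2 value exceeded that of only 21.8% of expressed genes, whereas Txnip exceeded 98.5%.

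The genes also differed in spread. The pooled SD within groups was 0.131 on the log2 scale for Sord, smaller than that of most genes (8.1% of genes were lower), and 0.145 for Glo1 and 0.149 for Tkt. Gfpt2 had an SD of 0.582, above 87.5% of genes, and the median gene had 0.2604. Groups accounted for 35.0% of the variance of Akr1b3 and 29.7% of that of Tkt, against 15.8% for the median gene and 10.9% for Ager.

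**Figure D1:**
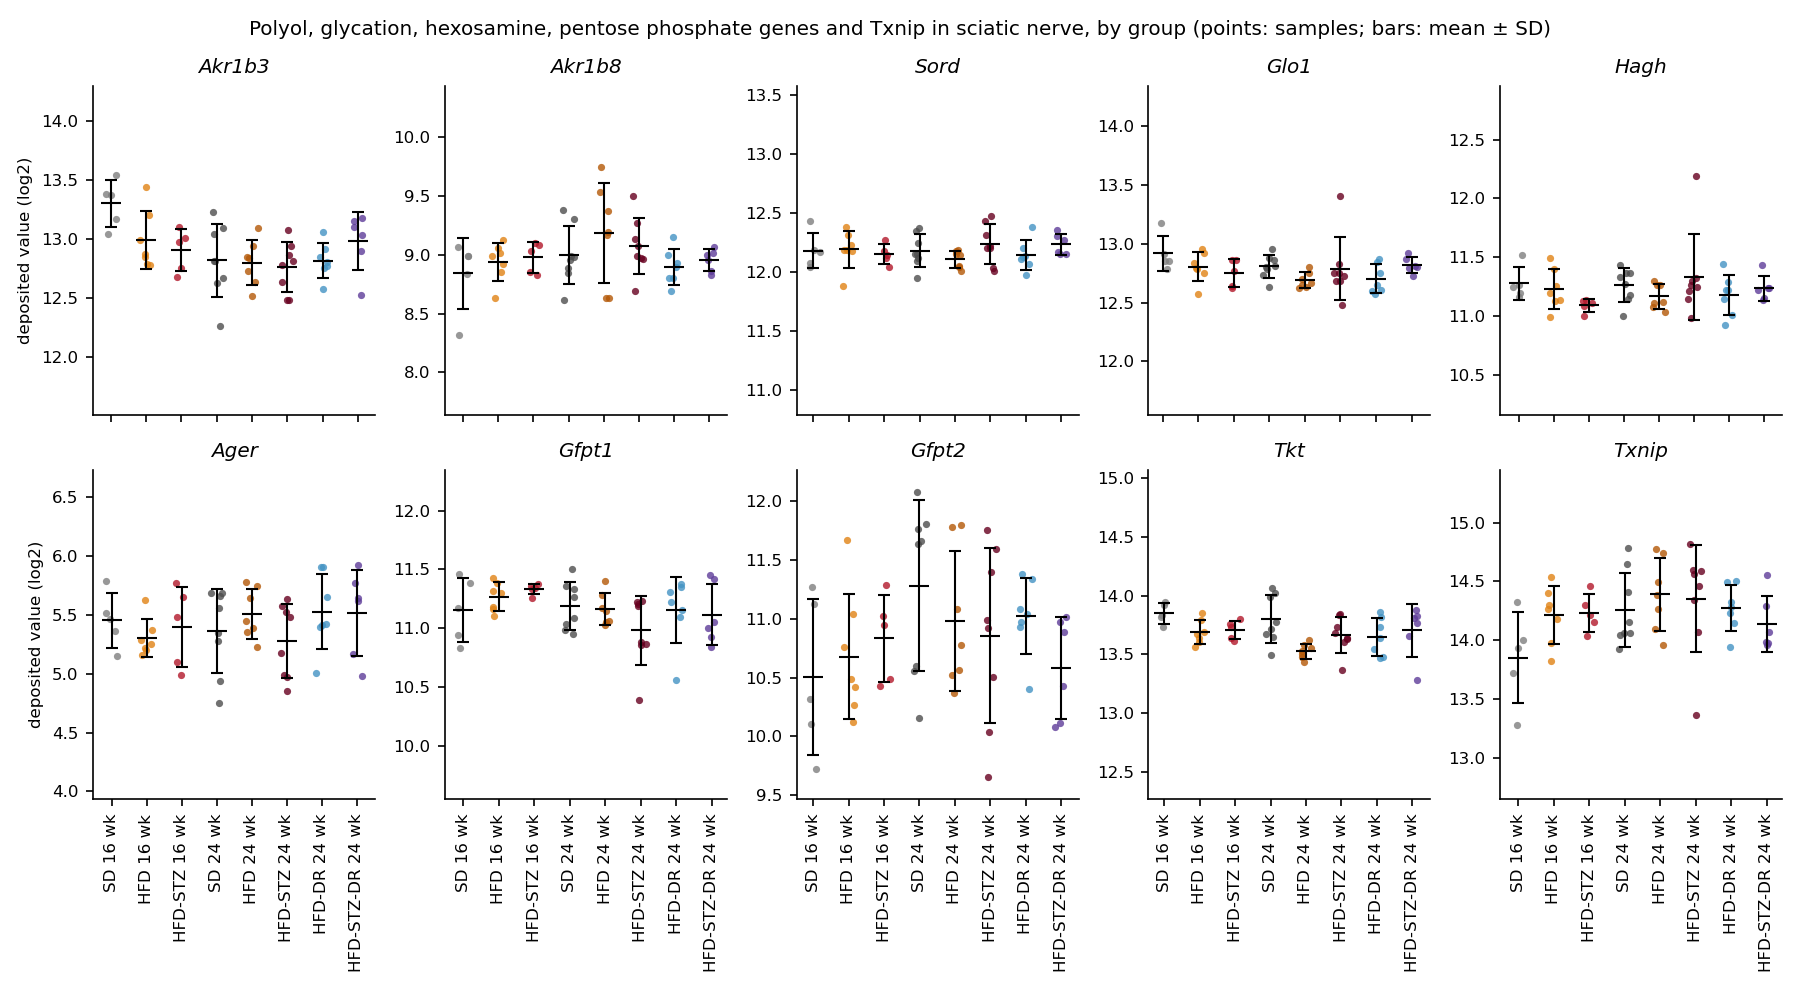
Deposited log2 values of the 10 genes in each of the 53 samples, by group, with black bars for the mean ± SD and a y axis of the same span in every panel. Akr1b3 lay highest in SD mice at 16 weeks (13.05 to 13.54), Gfpt2 had the widest spread within groups, and 1 HFD-STZ sample at 24 weeks lay far from its group for Glo1 (13.41), Hagh (12.19) and Gfpt1 (10.39).

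In all, 2 libraries stood apart from the rest by their mean correlation with the other samples, 0.9391 for HFD-STZ replicate 7 at 24 weeks and 0.9573 for HFD-STZ-DR replicate 4, and values that rest on them are also given without them. Correlations between samples ran from 0.916 to 0.994, and no pair of samples was identical. Marker scores, the mean log2 value of each cell type's markers, lay between 17.78 and 18.81 for myelinating Schwann cells in every sample. Wider ranges were seen for the adipocyte score (8.18 to 14.25), the skeletal muscle score (6.75 to 17.62) and the red blood cell score (6.72 to 12.64). Whether these markers come from tissue around the nerve or within it was not tested. In bulk nerve, fewer cells of a type and less RNA per cell cannot be told apart. The files give no reads behind each value, so no counting interval can be given.

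The comparison of HFD-STZ with HFD mice asks whether streptozotocin, added to the same diet, moved these genes. None of the 10 genes passed the test between HFD-STZ and HFD mice at 16 weeks, at 24 weeks or after DR. With limma's moderated test and Benjamini-Hochberg adjustment, 0% of 18202 genes at 16 weeks, 0% of 18117 at 24 weeks and 0% of 18189 after DR had an adjusted p under 0.05, and the smallest adjusted p of a member was 0.9868, 0.7852 and 0.9985. At an unadjusted p under 0.05, 0 of the 10 members were counted at 16 weeks against 4.88% of all genes, 0 at 24 weeks against 5.59%, and 1, Gfpt2, after DR against 3.58%. With all 8 groups and the runs of consecutive library numbers in 1 model, 2 members had an unadjusted p under 0.05 at 24 weeks. They were Sord (0.141, p 0.0441) and Tkt (0.153, p 0.0244), both higher in HFD-STZ mice, with limma adjusted p of 0.477 and 0.468. The 5.59% comes from the fit of the 2 groups alone. The share of all genes in the wider model is not given here. The differences of the 10 genes ran from -0.14 to 0.15 at 16 weeks, from -0.23 to 0.16 at 24 weeks and from -0.44 to 0.17 after DR. The change of the HFD-STZ difference with age was past the adjusted threshold for 0% of genes and for 0 members, and past the unadjusted one for 3.28% of genes and 0 members. Its change with DR likewise gave 0% of genes adjusted, 1.71% unadjusted, and 0 members.

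**Figure D2:**
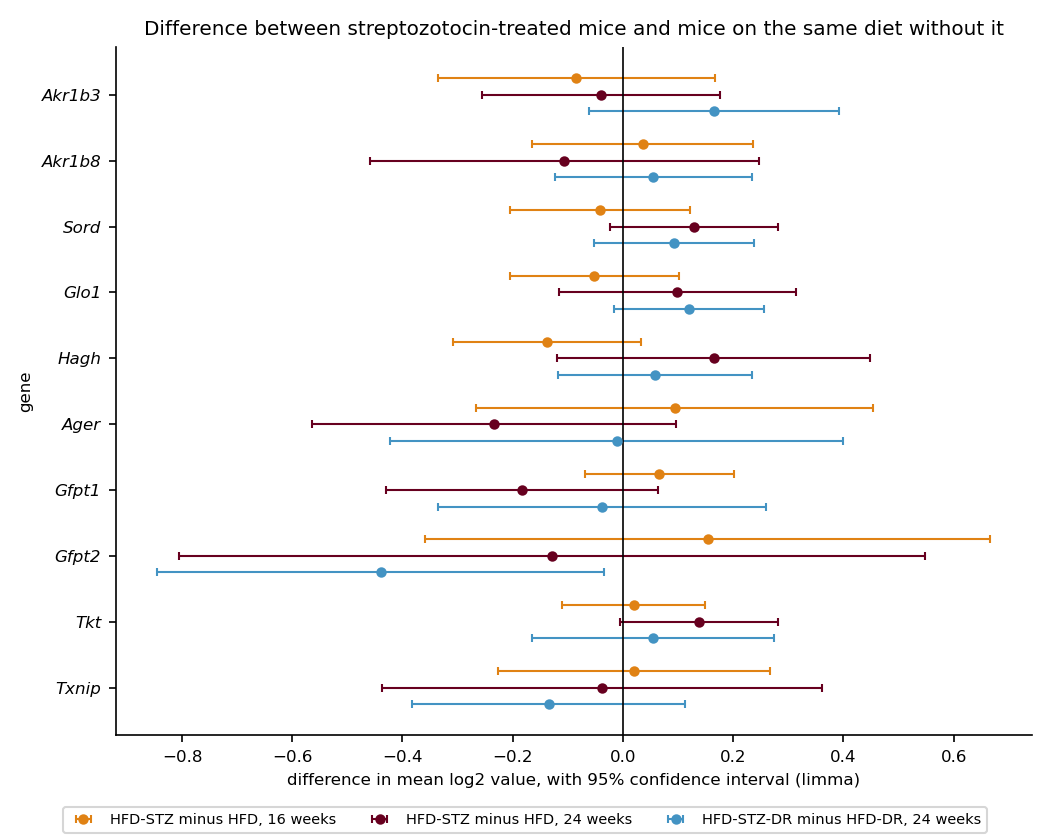
Difference in mean log2 value between streptozotocin-treated mice and mice of the same diet without it, with 95% confidence intervals from limma, for each gene at 16 weeks, 24 weeks and after DR. Every interval spans 0 except that of Gfpt2 after DR (-0.84 to -0.034). At 16 and 24 weeks the widest interval is that of Gfpt2 (-0.36 to 0.67 and -0.81 to 0.55).

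Akr1b3 encodes aldose reductase, the entry enzyme of the polyol pathway. At 16 weeks, the SD samples had 13.37, 13.54, 13.39, 13.17 and 13.05. The HFD-STZ samples had 13.11, 13.01, 12.98, 12.76 and 12.68, and the 7 HFD samples ran from 12.78 over a median of 12.87 to 13.44. The SD values were thus high, with a single HFD-STZ sample inside their range. HFD-STZ minus SD was -0.40 (95% CI -0.64 to -0.16), a ratio of 0.759, with an unadjusted p of 0.003845, an adjusted p of 0.5292 in limma's test and an exact permutation p of 0.0159. HFD minus SD was -0.31 (-0.58 to -0.048, adjusted p 0.5545), and HFD-STZ minus HFD was -0.085 (-0.34 to 0.17).

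In SD mice at 24 weeks, Akr1b3 ran from 12.26 over 12.82 to 13.23, and 6 of the 8 samples lay below every SD sample at 16 weeks. The difference between the ages was -0.48 (-0.79 to -0.18), with an adjusted p of 0.3526 in limma's test and an exact permutation p of 0.00932. At 24 weeks the group means were close, with SD at 12.82, HFD at 12.80, HFD-STZ at 12.76 and HFD-DR at 12.82, while HFD-STZ-DR was at 12.98 ± 0.25 (SD, n = 6). Across the 8 groups in order of mean, the step from SD to HFD at 16 weeks was larger than the larger SD of the groups on either side, and no other step of Akr1b3 or of the other 9 genes was.

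The myelinating Schwann cell score was lower in SD mice at 24 weeks than at 16 weeks, by -0.331, and the adipocyte score higher by 1.78 (exact permutation p 0.0186 and 0.0357). Between HFD and SD mice at 16 weeks, the same scores differed by -0.193 and 2.58 (exact permutation p 0.0455 and 0.00505). Akr1b3 followed the Schwann cell score over all samples, with r = 0.70 and rho = 0.73, and r was 0.59 within groups. The red blood cell score was also higher in both, by 2.3 between the ages and by 2.72 between the diets (exact permutation p 0.0124 and 0.00505). With the adipocyte score in the model, HFD minus SD at 16 weeks was 0.025, HFD-STZ minus SD -0.28, and SD at 24 minus 16 weeks -0.42.

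Akr1b8, an aldo-keto reductase close to aldose reductase that acts on lipid aldehydes and retinal, had group means from 8.84 in SD mice at 16 weeks to 9.18 in HFD mice at 24 weeks. The 7 HFD samples at 24 weeks ran from 8.63 over 9.19 to 9.75, and their SD of 0.426 was the largest of the 8 groups. HFD-DR samples ran from 8.69 over 8.90 to 9.15, and 0 of 7 lay above the HFD median. HFD-DR minus HFD was -0.28 (-0.62 to 0.055, adjusted p 0.797 in limma's test), and the macrophage and adipocyte scores of these groups differed by -0.563 and -1.53 (exact permutation p 0.0618 and 0.0338). HFD-STZ minus HFD was 0.036 (-0.16 to 0.24) at 16 weeks and -0.11 (-0.46 to 0.25) at 24 weeks.

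Sord, sorbitol dehydrogenase, was the steadiest of the genes, with group means between 12.11 and 12.24. HFD-STZ samples at 24 weeks ran from 12.01 over 12.21 to 12.48, and HFD samples from 12.01 over 12.14 to 12.19. Of the 8 HFD-STZ samples, 6 lay above the HFD median. The difference was 0.13 (-0.023 to 0.28), with an adjusted p of 0.7852 and an exact permutation p of 0.0752, and without the library that stood apart it was 0.094. At 16 weeks it was -0.042 (-0.21 to 0.12).

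Glo1 converts the adduct of methylglyoxal and glutathione, and Hagh, glyoxalase 2, hydrolyses the product. Their values moved together over the samples, with r = 0.81 over 53 samples and 0.86 within groups. Sord followed both, with r = 0.64 to Glo1 and 0.68 to Hagh. HFD-STZ replicate 7 at 24 weeks had the highest Glo1 (13.41) and the highest Hagh (12.19) of all 53 samples, so a part of these values rests on 1 library.

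Hagh in HFD-STZ mice at 16 weeks was 11.00, 11.11, 11.14, 11.08 and 11.13. SD mice of that age had 11.16, 11.52, 11.26, 11.19 and 11.25, so the groups did not overlap. In this comparison 8.41% of all genes had an unadjusted p under 0.05. The share of all genes whose groups did not overlap was not computed. HFD-STZ minus SD was -0.19 (-0.35 to -0.018), with an adjusted p of 0.586 and an exact permutation p of 0.00794. HFD samples of that age ran from 10.99 over 11.20 to 11.50 and overlapped both. HFD-STZ minus HFD was -0.14 (-0.31 to 0.033) at 16 weeks, with 0 of 5 samples above the HFD median, and 0.16 (-0.12 to 0.45) at 24 weeks. Without the library that stood apart, the 24-week difference was 0.042.

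Glo1 in HFD mice at 24 weeks ran from 12.62 over 12.67 to 12.80, and in SD mice from 12.63 over 12.81 to 12.95. HFD minus SD was -0.12 (-0.23 to -0.0064), with 0 of 7 samples above the SD median, an adjusted p of 0.5323 and an exact permutation p of 0.0205. HFD-STZ minus HFD was -0.052 (-0.20 to 0.10) at 16 weeks and 0.098 (-0.12 to 0.31) at 24 weeks, or 0.010 without the library that stood apart.

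Ager was low in every sample, between 4.75 and 5.92 on the log2 scale. HFD-STZ samples at 24 weeks ran from 4.86 over 5.33 to 5.64 and HFD samples from 5.23 over 5.45 to 5.78. The difference was -0.23 (-0.56 to 0.097, adjusted p 0.7852), and at 16 weeks it was 0.094 (-0.27 to 0.45). Group means covered a range of only 0.251, and Ager followed none of the cell type scores, with r between -0.15 and 0.03.

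Gfpt1 and Gfpt2 encode the 2 forms of glutamine-fructose-6-phosphate transaminase, the rate-limiting step of the hexosamine pathway. Gfpt1 in HFD-STZ mice at 16 weeks was 11.33, 11.34, 11.38, 11.36 and 11.26, the tightest group of this gene. The 8 HFD-STZ samples at 24 weeks ran from 10.39 over 11.04 to 11.24, so all 8 lay below every 16-week sample. In this comparison 12.5% of all genes and 1 member, Gfpt1, had an unadjusted p under 0.05, and 0% an adjusted one. How many of all genes had groups without overlap was not computed. HFD-STZ at 24 weeks minus 16 weeks was -0.35 (-0.62 to -0.081), a ratio of 0.783, with an adjusted p of 0.3112 and an exact permutation p of 0.00155. It was -0.27 without the library that stood apart. The myelinating Schwann cell score differed by -0.323 and the adipocyte score by 1.55 between these groups (exact permutation p 0.00932 and 0.0606). HFD-STZ minus HFD was 0.066 (-0.069 to 0.20) at 16 weeks and -0.18 (-0.43 to 0.063) at 24 weeks, and the latter was -0.099 without that library.

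Gfpt2 differed most between samples of 1 group. SD samples at 24 weeks ran from 10.15 over 11.65 to 12.08, with 3 samples at 10.60 or lower and 5 at 11.64 or higher. HFD-STZ samples at 24 weeks ran from 9.66 over 10.95 to 11.75 and HFD samples from 10.37 over 10.78 to 11.79. Their difference was -0.13 (-0.81 to 0.55), and 0.043 without the library that stood apart. At 16 weeks HFD-STZ minus HFD was 0.15 (-0.36 to 0.67), so a ratio between 0.779 and 1.59 lies within the interval.

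After DR, Gfpt2 was between 10.08 and 11.02 in the 6 HFD-STZ-DR samples and between 10.40 and 11.38 in the 7 HFD-DR samples, with medians of 10.66 and 11.04. The difference was -0.44 (-0.84 to -0.034, adjusted p 0.9985, exact permutation p 0.0583), with 0 of 6 samples above the HFD-DR median. HFD-STZ-DR minus SD at 24 weeks was -0.70 (-1.34 to -0.056), a ratio of 0.616 (adjusted p 0.5057, exact permutation p 0.0586). SD mice at 24 minus 16 weeks gave 0.77 (0.012 to 1.54, adjusted p 0.4723, exact permutation p 0.0901), the largest difference of any member. Without the HFD-STZ-DR library that stood apart, the differences from HFD-DR and SD mice were -0.345 and -0.605, with unadjusted p of 0.0859 and 0.0768. The fibroblast score differed in the same direction as Gfpt2 in each of these, by -0.211, -0.448 and 0.461 (exact permutation p 0.3, 0.0639 and 0.14). Between HFD-STZ-DR and SD mice the adipocyte score differed by -1.36 and the endothelial score by -0.207 (exact permutation p 0.022 and 0.0333), and between SD mice of both ages the adipocyte, Schwann cell and red blood cell scores differed as given for Akr1b3. With the adipocyte score in the model, the 3 Gfpt2 differences were -0.214, -0.457 and 0.287. The part of the other scores in these values was not tested.

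Tkt, transketolase, links the pentose phosphate pathway with glycolysis and uses thiamine as cofactor. HFD samples at 24 weeks ran from 13.44 over 13.53 to 13.62, a tight group, and SD samples from 13.50 over 13.74 to 14.06, with 0 of 7 HFD samples above the SD median. HFD minus SD was -0.27 (-0.44 to -0.096), a ratio of 0.829, with an unadjusted p of 0.004521, an adjusted p of 0.2934 in limma's test and an exact permutation p of 0.00342. This was the smallest adjusted p of any member. When all 8 groups entered 1 model with the 8 runs of consecutive library numbers, each of which mixes 3 to 8 groups, the same difference was -0.285 with an adjusted p of 0.0248 and passed the threshold. With the adipocyte score in the model it was -0.285 (unadjusted p 0.0102). The share of all genes called in the model with library runs is not given here.

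HFD-STZ samples at 24 weeks had Tkt from 13.37 over 13.66 to 13.85, and 6 of 8 lay above every HFD sample while 1 lay below all of them. HFD-STZ minus HFD was 0.14 (-0.0053 to 0.28), with an adjusted p of 0.7852 and an exact permutation p of 0.0448, and it was 0.115 without the library that stood apart. At 16 weeks HFD-STZ minus HFD was 0.019 (-0.11 to 0.15), and the change of this difference with age was 0.12 (-0.066 to 0.30, adjusted p 0.8762). At 16 weeks HFD minus SD was -0.16 (-0.30 to -0.019, adjusted p 0.566, exact permutation p 0.0202). HFD at 24 minus 16 weeks was also -0.16 (-0.28 to -0.044, adjusted p 0.7424, exact permutation p 0.00408), while the Schwann cell score of these groups differed by -0.297 (exact permutation p 0.0035). HFD-DR minus HFD was 0.12 (-0.029 to 0.27, adjusted p 0.8158). HFD minus SD, HFD-STZ minus HFD and HFD-DR minus HFD share the HFD samples.

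Txnip binds thioredoxin and limits glucose uptake. At 16 weeks SD samples had 13.72, 13.28, 13.94, 14.002 and 14.33, and HFD-STZ samples had 14.21, 14.03, 14.15, 14.30 and 14.46. HFD samples ran from 13.82 over 14.26 to 14.54. HFD-STZ samples were all above the SD median and within or just above the SD range. HFD-STZ minus SD was 0.38 (0.020 to 0.74, adjusted p 0.586, exact permutation p 0.0714), HFD minus SD 0.36 (0.010 to 0.71, adjusted p 0.5718, exact permutation p 0.0833), and HFD-STZ minus HFD 0.019 (-0.23 to 0.27). Without SD replicate 2, the lowest of its group, they were 0.236 for HFD-STZ and 0.217 for HFD minus SD, the latter with an unadjusted p of 0.146. With the adipocyte score in the model, HFD minus SD was -0.14 and HFD-STZ minus SD 0.18.

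At 24 weeks Txnip ran from 13.36 over 14.51 to 14.82 in HFD-STZ mice and from 13.96 over 14.39 to 14.78 in HFD mice. The difference was -0.038 (-0.44 to 0.36), and 0.10 without the library that stood apart, which held the low value. SD mice at 24 minus 16 weeks gave 0.41 (0.027 to 0.79, adjusted p 0.4634, exact permutation p 0.0653), or 0.064 with the adipocyte score in the model and 0.265 without SD replicate 2 at 16 weeks. Txnip means after DR were 14.28 in HFD-DR and 14.14 in HFD-STZ-DR mice, with a difference of -0.14 (-0.38 to 0.11), or -0.218 (unadjusted p 0.0458, adjusted p 0.533) without HFD-STZ-DR replicate 4. HFD-STZ-DR minus HFD-STZ was -0.211, and without both libraries that stood apart it was -0.436 (unadjusted p 0.00148, adjusted p 0.0852), while the adipocyte score of all samples of these groups differed by -2.35 (exact permutation p 0.004). Arrdc4, the paralog of Txnip with the same glucose-responsive control, had means of 10.12 and 10.25 in HFD and HFD-STZ mice at 16 weeks and 10.27 and 10.45 at 24 weeks. Its differences were 0.13 (-0.11 to 0.38) and 0.18 (-0.034 to 0.39), with adjusted p of 0.9868 and 0.7852. After DR, HFD-STZ-DR minus HFD-DR was -0.19 (-0.38 to 0.0042, adjusted p 0.9985) and HFD-STZ-DR minus HFD-STZ -0.30 (-0.51 to -0.093, unadjusted p 0.007578, adjusted p 0.3993). The change of the HFD-STZ difference with DR was -0.37 (unadjusted p 0.01221, adjusted p 0.9999).

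Across all 14 comparisons of 2 groups, 0 members passed the adjusted threshold in limma's test, and 15 of their 140 differences had an unadjusted p under 0.05. Of all genes, between 3.58% and 12.5% had an unadjusted p under 0.05 in these comparisons, which reuse the same 8 groups. The exact permutation test gave 11 of 140 with p under 0.05. It was run on the members only, so no share of all genes stands beside it. The 3 comparisons with SD mice at 16 weeks share those 5 samples and hold 9 of the 15. Against SD, the members at an unadjusted p under 0.05 numbered 3 for HFD at 16 weeks (Akr1b3, Tkt and Txnip, 8.55% of all genes), 2 for HFD at 24 weeks (Glo1 and Tkt, 9.05%), 3 for HFD-STZ at 16 weeks (Akr1b3, Hagh and Txnip), 0 for HFD-STZ at 24 weeks (5.99%), 0 for HFD-DR (5.14%) and 1 for HFD-STZ-DR (Gfpt2, 9.16%). The share of all genes past the adjusted threshold was 0.00557% for HFD at 16 weeks, 0.121% for HFD at 24 weeks, 0.0336% for HFD-STZ at 24 weeks and 0% for the other 3.

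For DR, 0 members were counted at an unadjusted p under 0.05 in HFD-DR against HFD mice (6.72% of all genes, 0.0108% adjusted) and 0 in HFD-STZ-DR against HFD-STZ mice (6.48%, 0.084% adjusted). In the latter, Ager and Txnip had an unadjusted p under 0.05 without the libraries that stood apart. Their differences were 0.4 (p 0.0424, adjusted p 0.37) and -0.436 (p 0.00148, adjusted p 0.0852) in limma's test. The 6.48% is from the fit with all samples. The share of all genes without these libraries is not given here. Between 24 and 16 weeks, the counts were 3 in SD mice (Akr1b3, Gfpt2 and Txnip, 10.5% of all genes, 0% adjusted) and 1 in HFD mice (Tkt, 5.9%, 0.0654% adjusted). A change of the HFD difference with age was counted for 0 of 10 members at an unadjusted p under 0.05, against 1.67% of all genes, and for 0% of genes at an adjusted one.

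**Figure D3:**
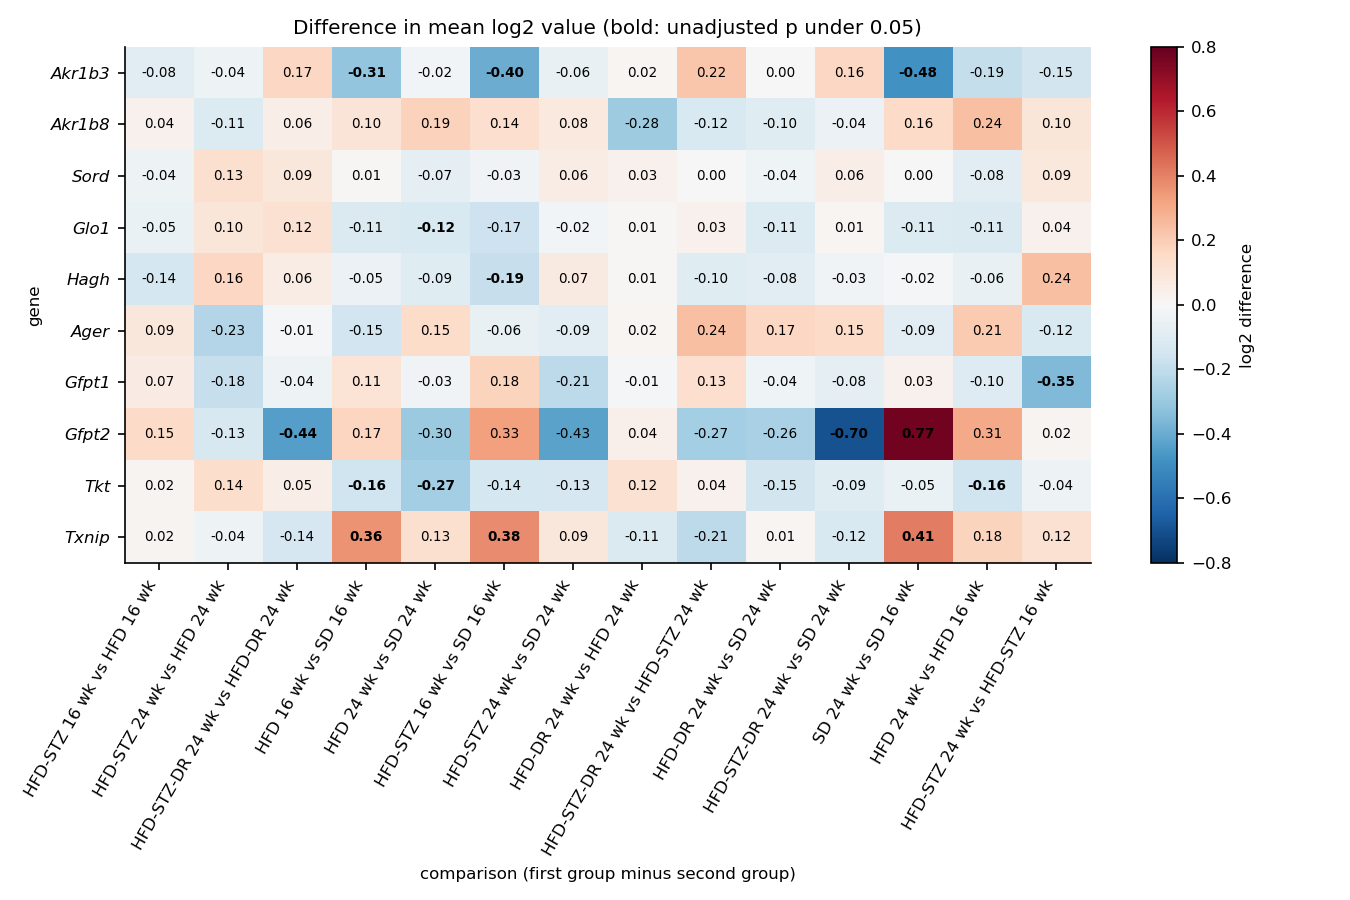
Difference in mean log2 value of each gene (rows) in the 14 comparisons (columns, first group minus second), with colour and number giving the difference and bold type an unadjusted p under 0.05. The bold values gather in the comparisons with SD mice at 16 weeks, and the largest is Gfpt2 in SD mice between the ages (0.77).

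Samples with a high marker score for a cell type also had high values of some of these genes. Of 70 relations between the 10 genes and 7 marker scores over 53 samples, 37 had an adjusted permutation p under 0.05 (100000 permutations, two-sided, Benjamini-Hochberg over the 70). The share of all genes with such a relation was not computed. Akr1b3 and Tkt rose with the myelinating Schwann cell score, with r = 0.70 and 0.67 and rho = 0.73 and 0.66. Akr1b3 fell with the macrophage score (r = -0.53, rho = -0.56) and the adipocyte score (r = -0.52, rho = -0.55). Each of these 4 had an adjusted permutation p of 0.000247 or less for both coefficients. Their r exceeded that of 97.1%, 96.5%, 6.51% and 3.36% of expressed genes, in the same order. Others of the 37 lay nearer the middle. Gfpt1 with the macrophage score (r = 0.43) exceeded 83.9% of expressed genes, and Tkt with that score (r = -0.35) exceeded 19.5%.

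Gfpt2 followed the fibroblast score most closely, with r = 0.92 and rho = 0.93, the smallest p that the permutations can give (1e-05) and a higher r than 99.8% of expressed genes. Its r was 0.93 within groups, 0.90 within runs of library numbers and 0.91 without the 2 most distant samples. Gfpt2 also followed the macrophage score (r = 0.84, rho = 0.85). Gfpt1, the other form, had r = 0.61 and rho = 0.54 with the fibroblast score and 0.06 with the Schwann cell score.

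Akr1b8 followed the macrophage score (r = 0.72, rho = 0.61, adjusted permutation p 5e-05 and 7e-05), with r = 0.61 without the 2 most distant samples and 0.69 within groups. Txnip followed the endothelial (r = 0.75, rho = 0.73) and adipocyte scores (r = 0.70, rho = 0.70) and ran against the Schwann cell score (r = -0.64, rho = -0.62). Within groups these 3 were 0.78, 0.69 and -0.58, and within runs of library numbers 0.73, 0.71 and -0.62. The fibroblast relations of Glo1 and Hagh (r = -0.47 and -0.46) were -0.28 and -0.23 without the 2 libraries that stood apart.

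**Figure D4:**
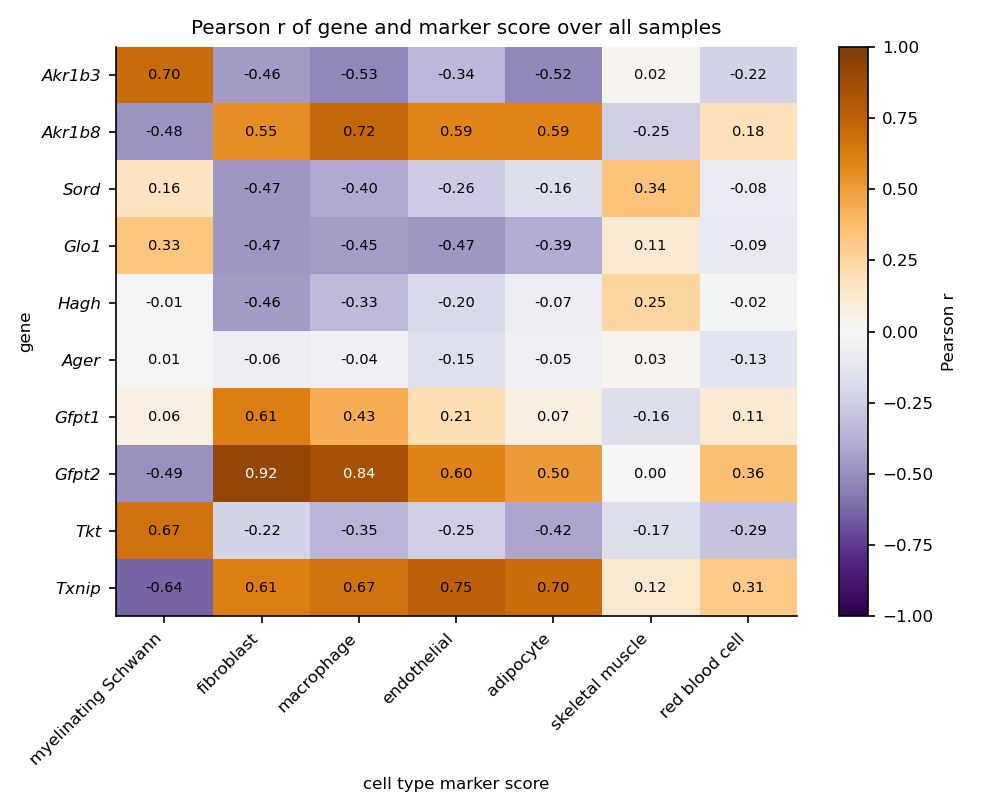
Pearson r of each gene (rows) with each cell type marker score (columns) over 53 samples. Gfpt2 with fibroblasts (0.92) and macrophages (0.84) gives the highest values, Akr1b3 and Tkt are highest with myelinating Schwann cells, and Ager is near 0 throughout.

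**Figure D5:**
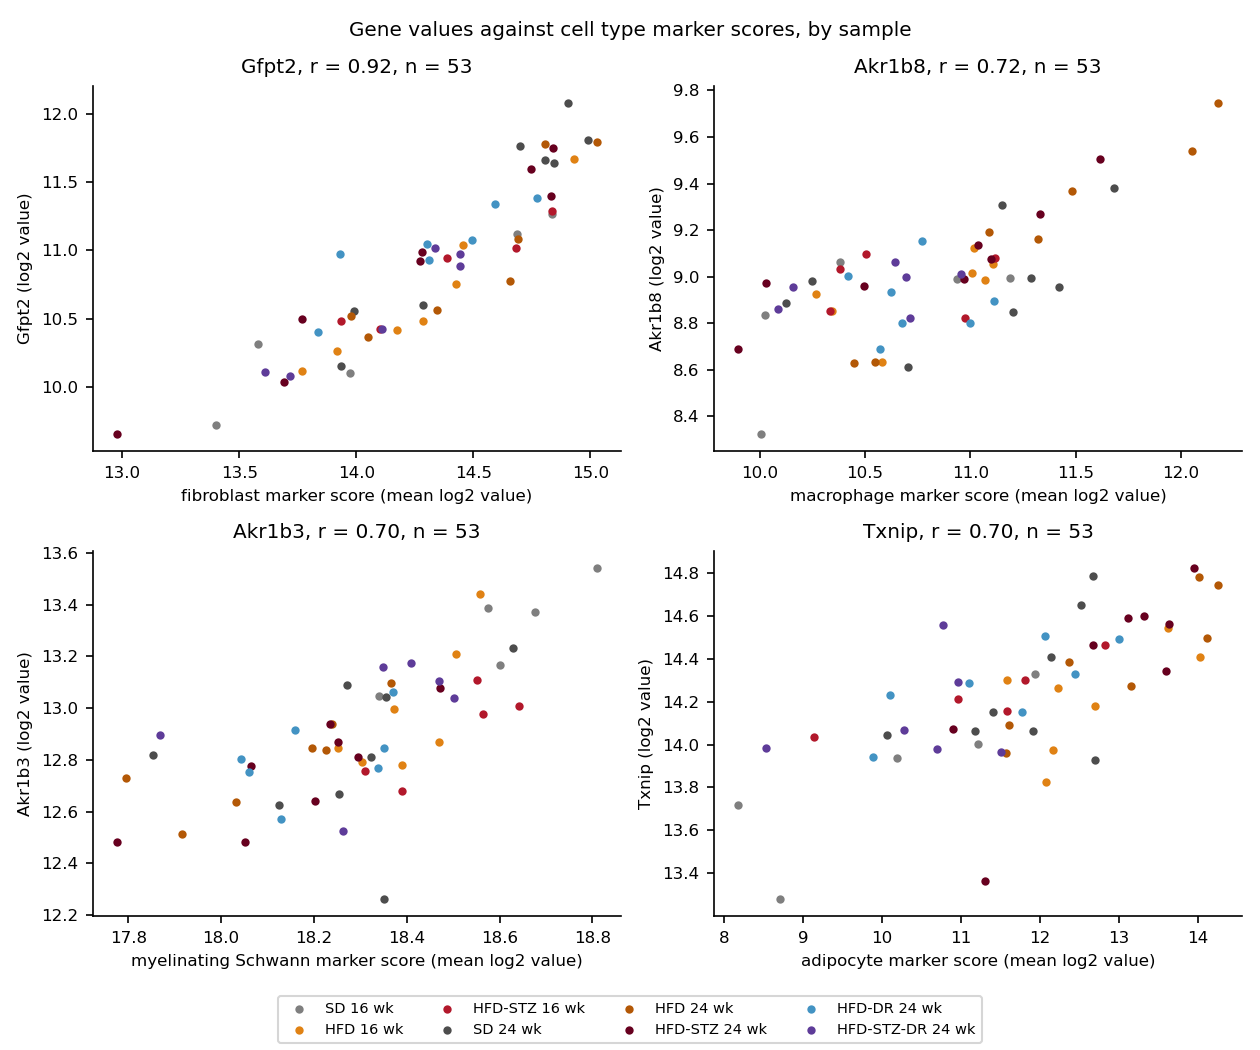
Log2 values of Gfpt2, Akr1b8, Akr1b3 and Txnip against a marker score (mean log2 value), 1 point per sample, coloured by group. Samples of different groups are mixed along each trend, and r is 0.92, 0.72, 0.70 and 0.70.

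The genes whose values were most like those of each member over 53 samples were chosen as the highest of 18068 correlations, so the coefficients are a description. They were Cd34 (r = 0.95) and Ecm1 (0.94) for Gfpt2, Lats1 and Lamc1 (0.89 each) for Gfpt1, and Epas1 (0.84) and Sik2 (0.83) for Txnip. For Akr1b3 they were Them5 (0.82) and Crybb1 (0.80), for Akr1b8 Grn (0.81) and Pltp (0.80), and for Tkt Slc25a1 (0.84), the mitochondrial citrate carrier, and Stx6 (0.82). For Glo1 they were Pcmt1 (0.93) and Ube2n (0.92), for Hagh Emc4 (0.92) and Psmb3 (0.90), and for Sord Mtfr1l (0.80) and Dtnbp1 (0.77). Ager had no close match, with Fscn2 at 0.48 and Sart3 at 0.44.

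The wider pathways were followed in 5 lists with 52 further genes in the data, and 0 of them passed the adjusted threshold in any of the 14 comparisons. Between HFD-STZ and HFD mice at 16 weeks, 1 of 49 tested had an unadjusted p under 0.05 and a higher mean in HFD-STZ and 4 had a lower mean, beside 1.99% higher and 2.9% lower over all genes. At 24 weeks 0 of 48 were higher and 1 was lower, beside 1.42% and 4.17%. The median difference at 16 weeks was -0.040 for polyol and osmolyte genes, 0.031 for the hexosamine pathway, -0.061 for glycation and RAGE, -0.071 for the pentose phosphate pathway and thiamine, and -0.079 for thioredoxin and glucose sensing, beside 0.0018 over all genes. At 24 weeks the medians were -0.26 (7 genes tested), 0.070, 0.0075, -0.018 and 0.090 in the same order, beside -0.0089 over all genes.

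S100a8, a RAGE ligand that is abundant in neutrophils, had the smallest p of the glycation list at both ages. At 16 weeks it ran from 3.72 over 6.03 to 10.57 in HFD mice and from 3.39 over 3.67 to 7.39 in HFD-STZ mice, with a difference of -2.44 (-4.59 to -0.29, adjusted p 0.9868). At 24 weeks it ran from 6.22 over 6.83 to 10.88 and from 3.84 over 5.29 to 8.61, with a difference of -1.82 (-3.34 to -0.29, adjusted p 0.7852). The groups overlapped at both ages.

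Akr1b10, another aldo-keto reductase close to aldose reductase, had differences of -0.28 (-0.50 to -0.059) at 16 weeks and -0.29 (-0.58 to 0.0061) at 24 weeks, with adjusted p of 0.9868 and 0.7852. At 16 weeks Mgea5, which removes O-GlcNAc, was at 0.18 and Mlx, the partner of MondoA, at -0.10 (adjusted p 0.9868 each). At 24 weeks the thiamine transporter Slc19a2 was at 0.32, the hexosamine gene Uap1l1 at 0.13 and thioredoxin reductase Txnrd1 at 0.11 (adjusted p 0.7852 each).

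In the other comparisons, counts of list genes at an unadjusted p under 0.05 were 0 higher and 6 lower of 49 for HFD-DR against HFD mice, where 2.15% of all genes were higher and 4.57% lower. For HFD-STZ-DR against HFD-STZ mice they were 0 higher and 7 lower of 48, where 1.97% of all genes were higher and 4.51% lower. In the following comparisons 48 or 49 list genes were tested, and brackets give the shares of all genes counted, higher then lower. Against SD mice of the same age, HFD mice had 1 higher and 1 lower at 16 weeks (4.98% and 3.57%). At 24 weeks they had 4 higher and 2 lower (5.54% and 3.51%). HFD-STZ mice had 0 higher and 6 lower at 16 weeks (3.99% and 4.42%). At 24 weeks they had 1 higher and 2 lower (3.3% and 2.69%). Against SD mice, HFD-DR mice had 1 higher and 0 lower (3.71% and 1.43%). HFD-STZ-DR mice had 2 higher and 3 lower against SD mice (4.49% and 4.67%). HFD-STZ-DR against HFD-DR mice gave 1 higher and 1 lower (1.48% and 2.1%). Between 24 and 16 weeks there were 3 higher and 2 lower in SD mice (5.43% and 5.04%). HFD mice had 0 higher and 1 lower between these ages (2.68% and 3.22%). HFD-STZ mice had 6 higher and 2 lower (5.85% and 6.69%).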

How the data were processed

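RNA-seq values of 53 sciatic nerve samples were used. Per the study's methods and processing notes, the authors filtered reads, aligned them to GRCm38 (mm10) with HISAT2 and counted them with featureCounts, with FPKM and DESeq2 named for expression and DEGs. The deposited values are log2 values for 49568 genes per sample, normalized by the authors in a way not given in the sources used here. Labels and methods differ on the RNA and library kits. As the values are not counts, limma 3.58.1 (R 4.3.3) was run on the samples of each pair of groups, with a variance prior following mean expression. Tested genes had to average 3.32 or more on the log2 scale, and 25 genes reaching beyond 22 were removed. Adjustment was by Benjamini-Hochberg over every gene tested, with a threshold of 0.05. Interactions were fitted on 4 groups. The test was checked on simulated data. Members were also compared by 2-sided exact permutation tests of group means, without adjustment over members. Marker scores are means of fixed markers.

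All 10 members are named, together with, in each pathway list, the gene with the smallest p between HFD-STZ and HFD mice at each age and any past the threshold, and the 2 genes most correlated with each member, Gm and Rik names left out. In 1 case, a gene named by this rule is not reported here. Arrdc4, Gm15441 and Gm6652 were named after their values were seen. Members, lists and markers were chosen with earlier results of these data known. Promoter windows are from RefSeq (GRCm38.p6), where 9 members matched and Akr1b3 did not. Alternatives were other filters, all 8 groups in 1 fit, the same with library-number runs, robust or trend-free priors, median centring, keeping values above 22, adipocyte and muscle scores as covariates, and leaving out each replicate. Leaving out the 2 libraries that stood apart was added after seeing the data. Python 3.11.15 with numpy 2.4.6 and scipy 1.17.1 was used for other values.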

Additional observations from a re-analysis of the deposited data

Results flagged for a closer look

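Of 80 combinations of a gene and a group, 7 held a sample that lay far from the others of its group, measured by its gap to the nearest sample over the range of the group (Dixon's test at 95%). Chance gives about 1 in 20 such combinations. The 7 fell in 5 samples. HFD-STZ replicate 7 at 24 weeks was high for Glo1 (13.405, next 12.831) and Hagh (12.188, next 11.321) and low for Gfpt1 (10.39, next 10.854), and it is the sample with the lowest mean correlation with the others. HFD-STZ-DR replicate 4 was high for Hagh (11.431), and it had the other low correlation and a skeletal muscle score of 16.976. SD replicate 2 at 16 weeks was high for Hagh (11.521), HFD replicate 1 at 16 weeks low for Sord (11.883), and HFD-DR replicate 1 low for Gfpt1 (10.562). The part of tissue content or library quality in these values was not tested.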

How the results depend on the processing

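In all 14 comparisons and 3 interactions, the number of members past the adjusted threshold was 0 under every alternative, with 1 exception. With all 8 groups and the runs of library numbers in 1 fit, 1 member was called between HFD and SD mice at 24 weeks, Tkt (-0.285, adjusted p 0.0248). The share of all genes called in that fit is not given here. Of 35 differences followed through 12 alternatives, 407 of 420 values kept sign and side of the threshold, 12 turned sign and 1 gained the call. Those that turned sign were, for HFD-STZ minus HFD at 16 weeks, Akr1b8 with the muscle score (-0.00835), Txnip with library runs (-0.0121) and Tkt with the adipocyte score (-0.0428) or both scores (-0.0223). At 24 weeks they were Txnip with the adipocyte score (0.0192) or both (0.0240) and, without the libraries that stood apart, Gfpt2 (0.0429) and Txnip (0.103). For HFD minus SD at 16 weeks they were Akr1b3 with the adipocyte score (0.0245) or both (0.0634) and Txnip (-0.142 and -0.0594). Leaving out 1 replicate turned 15 of 459 values, none of them called. At 16 weeks the HFD-STZ minus HFD ranges that crossed 0 were -0.0154 to 0.0741 for Akr1b8, -0.000229 to 0.197 for Ager, -0.0455 to 0.0742 for Txnip and -0.00345 to 0.0467 for Tkt. At 24 weeks they were -0.0877 to 0.00898 for Akr1b3, -0.257 to 0.0429 for Gfpt2 and -0.109 to 0.103 for Txnip. Apart from the covariates, which change the quantity, the cause was not tested. The labels give no replicate numbers to pair samples by, and the runs of library numbers served as the only block. The files hold no read counts, so the error of counting was not separated from the spread between samples.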
